A study of Mus musculus with 7 samples.

Results

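The receptors for the constant (Fc) part of IgG were described through 6 genes taken by name: the activating receptors Fcgr1, Fcgr3 and Fcgr4, the inhibitory receptor Fcgr2b, the signalling chain Fcer1g and the neonatal Fc receptor Fcgrt. All 6 were found among the 55491 gene rows of the deposited matrix, of which 31358 held a UMI (unique molecular identifier, 1 per captured transcript). The data are droplet 5-prime single-cell RNA libraries of immune cells from the brains of mice with CT-2A glioma, a mouse glioma line injected into the brain. The cells had been frozen, thawed, treated with a blocking reagent for Fc receptors and sorted as live cells carrying CD45, CD11b or both. The 4 Siglece KO libraries came from Sall1CreERT2 x Siglecefl/fl mice, in which tamoxifen activates a Cre driven from Sall1, a gene used in the brain mainly by microglia, against floxed Siglece. The 3 WT libraries came from Siglecefl/fl mice without the driver. Both genotypes shared the floxed alleles, the tumour, an age of 8 to 12 weeks at injection, and tamoxifen, 2.5 mg per injection, daily from day 7 to day 21 and every other day after that. KO mice also differ from WT mice in carrying the driver itself. Each library is treated as 1 mouse; the labels do not say whether it was 1 animal, so p-values measure the spread between these libraries.

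Fcgr1, Fcgr3 and Fcgr4 encode receptors that bind IgG on antibody-coated cells or immune complexes and signal through Fcer1g, whose cytoplasmic tail carries an immunoreceptor tyrosine-based activation motif (ITAM). Fcgr2b binds IgG too, but its own tail carries an inhibitory motif (ITIM) that recruits phosphatases such as the product of Inpp5d, so the balance of both kinds sets how a macrophage answers to bound antibody. Fcgrt pairs with B2m, acts inside the cell and returns endocytosed IgG to the surface.

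The 7 libraries held 1410 to 5856 cells, 28644 in all, with a median of 4479 to 9554 UMIs per cell. Cell groups are the authors' 23 cell type names, which were checked against marker lists. The highest level lay in the matching name for 7 of 8 microglia markers, 6 of 10 monocyte and macrophage markers, 3 of 5 mo-DC or cDC2 markers (dendritic cells, below), 3 of 4 cDC1 markers, 6 of 6 NK markers, 6 of 6 B cell markers and 7 of 7 T cell markers. Of the cells, 3.23% (926) carried a barcode found in more than 1 library. Siglece, the targeted gene, had 2, 1, 0 and 0 UMIs in the microglia of KO replicates 1 to 4 and 20, 19 and 7 in those of WT replicates 1 to 3. As UMIs per 1000000 UMIs (CPM) this was 10.7, 19.6, 0 and 0 CPM in KO and 36.1, 45.9 and 18.6 CPM in WT, so that KO replicate 2, from its 1 UMI, lay above WT replicate 3 and the genotypes overlapped. In monocytes and macrophages together it lay at 41.0 to 48.7 CPM in KO and 26.6 to 52.9 CPM in WT.

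Fcgr2b and Fcgr3 are close relatives, and how close matters for the values of this pair, because part of their UMIs could not be given to 1 of the pair. On build GRCm38 (mm10), Fcgr2b lies at chr1:170958617-170976547, Fcgr4 at chr1:171018920-171029761, Fcgr3 at chr1:171051174-171064935 and Fcer1g at chr1:171229572-171234365, all on chromosome 1. Fcgr1 lies apart at chr3:96282909-96293969 and Fcgrt at chr7:45092990-45103851. In the GENCODE M21 transcripts the coding sequences of Fcgr2b and Fcgr3 were 83.7% identical over 787 aligned bases, with a longest identical run of 129 bases. The other pairs among Fcgr1, Fcgr2b, Fcgr3 and Fcgr4 were 58.7% to 63.3% identical, and their longest identical runs reached at most 14 bases. The 150 coding bases in which the pair is most alike are shown here, with the differing base in capitals. They are coding bases 256 to 405 of Fcgr2b-204 (exons 5 and 6 of 10, chr1:170966675-170968103, minus strand) and 241 to 390 of Fcgr3-201 (exons 3 and 4 of 5, chr1:171054168-171057814, minus strand).
Fcgr2b: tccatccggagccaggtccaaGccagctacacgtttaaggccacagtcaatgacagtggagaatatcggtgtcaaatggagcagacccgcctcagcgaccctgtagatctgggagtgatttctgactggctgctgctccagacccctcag
Fcgr3: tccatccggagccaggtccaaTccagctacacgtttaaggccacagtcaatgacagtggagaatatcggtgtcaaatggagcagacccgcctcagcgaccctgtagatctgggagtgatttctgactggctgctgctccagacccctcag
Within this window 1 base differs. Values that are not whole numbers occurred in 1973 cells for Fcgr2b and in 1973 cells for Fcgr3. In all 1973 of these cells both genes were not whole while their sum was whole (within 0.01), so the files hold UMIs split between the pair. Such values carried 31.3% of the UMIs of Fcgr2b and 32.9% of those of Fcgr3, and none of those of Fcgr1, Fcgr4, Fcer1g and Fcgrt. The share was uneven: 37.2% for Fcgr2b and 37.5% for Fcgr3 in Macrophages (P5), against 5.63% and 5.80% in Microglia (Low-quality/activated). The level of Fcgr2b against Fcgr3 is therefore less certain than that of the other members, and the genotype differences of the pair and the balance of receptors were also computed without these values. The level orders, shares of cells and correlations were not. Leaving out such a value removed all UMIs of that gene in that cell, split or not.

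The signalling parts of the family differ in the same plain way in their coding sequence. The stretches that encode the inhibitory motif of Fcgr2b (coding bases 949 to 966, exon 10, chr1:170961071-170961088, minus strand) and the activation motif of Fcer1g (coding bases 193 to 237, exons 4 and 5, chr1:171229889-171230072, minus strand) are shown with their tyrosine codons in capitals.
Fcgr2b ITIM: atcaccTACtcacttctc
Fcer1g ITAM: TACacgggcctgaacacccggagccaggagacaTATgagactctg
The inhibitory stretch holds 1 such codon and the activating stretch holds a pair.

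Among the activating receptors, Fcgr1, the high-affinity IgG receptor, was found in microglia, monocytes and macrophages, at lower levels in mo-DCs (monocyte-derived dendritic cells) and at low levels elsewhere. Levels are CPM, the UMIs of a gene scaled to 1000000 UMIs of the same cells, as mean ± SD over mice with at least 20 cells of the name, and since the names were made from the same expression values they are a description with no test. Fcgr1 lay at 425 ± 23.2 CPM in Microglia (n = 3, all WT), 378 ± 85.5 CPM in Monocytes (P1-P2) (n = 7), 337 ± 88.0 CPM in Macrophages (P3) and 269 ± 51.5 CPM in Macrophages (P5). Neighbouring names in this order differed by less than the larger SD, and in WT mice alone Monocytes (P1-P2) were at 436 ± 60.9 CPM. The order then dropped beyond the spread from Macrophages (Proliferating) at 261 ± 40.8 CPM (n = 6) to Microglia (Low-quality/activated) at 152 ± 45.1 CPM (n = 5), and from mo-DCs at 107 ± 35.4 CPM (n = 7) to cDC1 (type 1 conventional dendritic cells) at 21.0 ± 13.8 CPM. Over all 22 neighbouring pairs, 2 were apart by more than their spread.

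**Figure D1:**
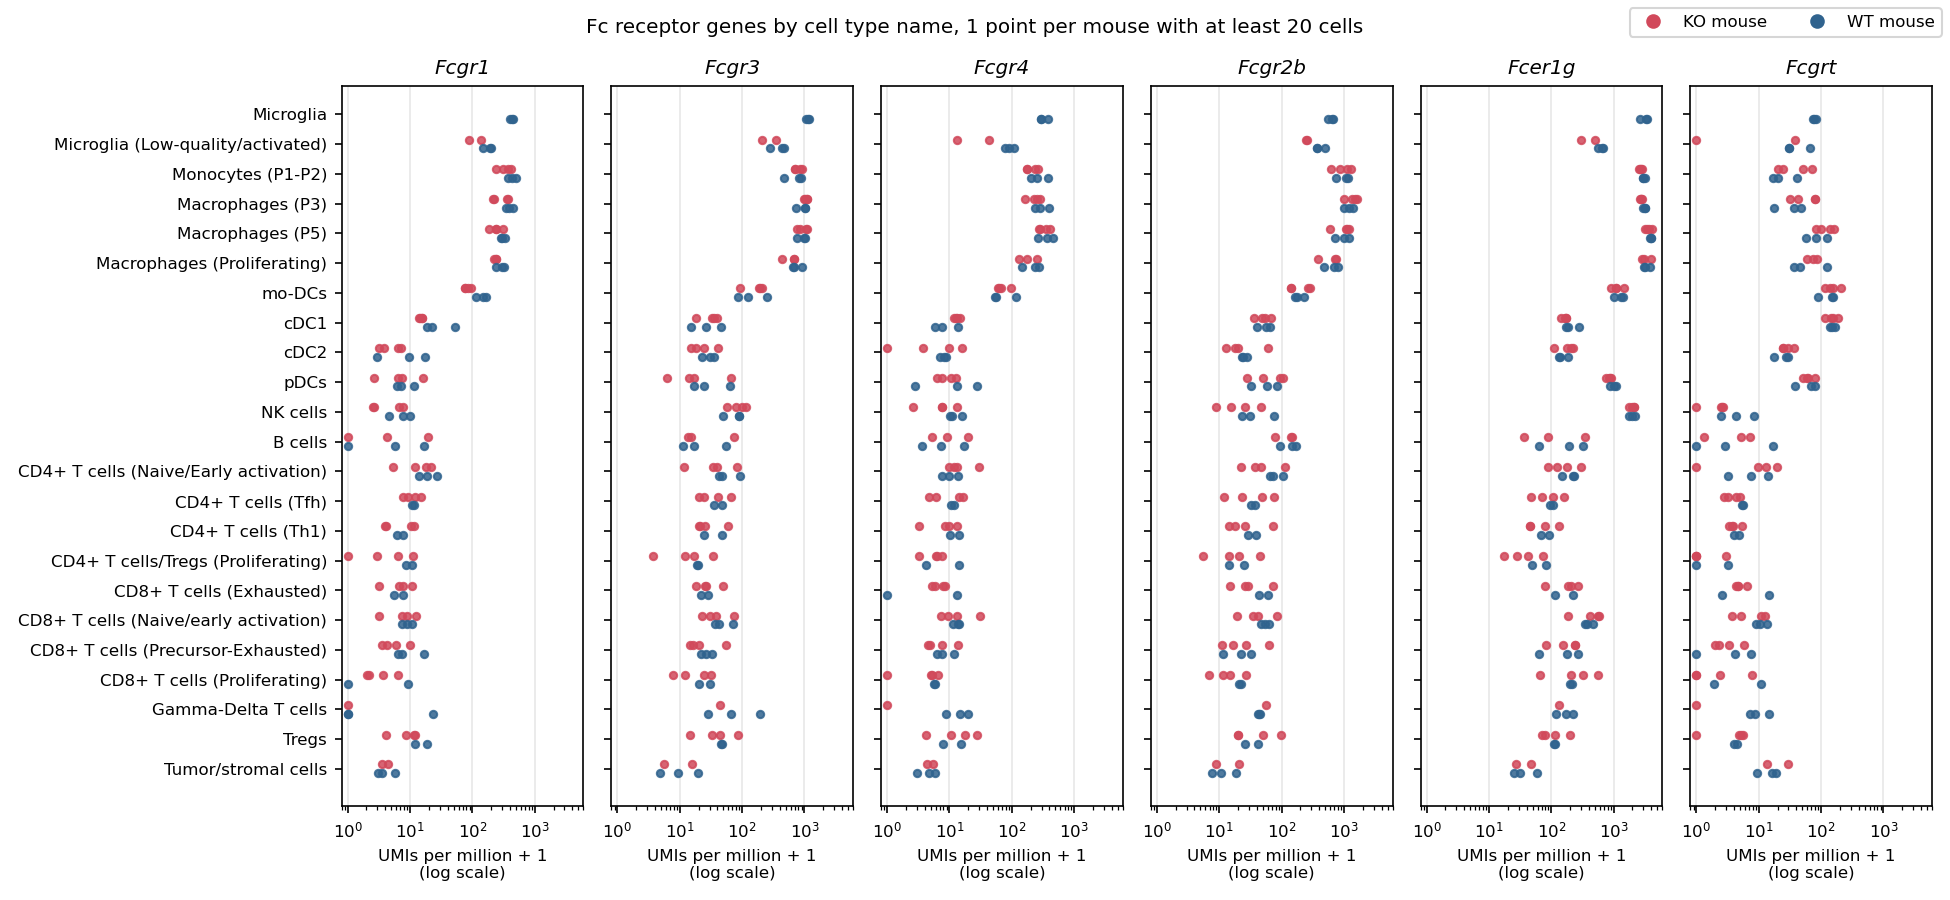
Level of each Fc receptor gene (CPM + 1, log scale) in each of the 23 cell type names, with 1 point per mouse with at least 20 cells, KO in red and WT in blue. Fcgr1, Fcgr3, Fcgr4 and Fcgr2b are high in the Microglia, monocyte and macrophage names, Fcer1g is also high in NK cells and pDCs, and Fcgrt is highest in cDC1 and mo-DCs. Microglia (Low-quality/activated) lie lower, with Fcgr4 in the range of mo-DCs.

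Fcgr3, the low-affinity activating receptor and the one NK cells carry, was highest in Microglia at 1127 ± 48.5 CPM (n = 3, all WT). This lay above Macrophages (P3) at 993 ± 125 CPM (n = 7, both genotypes) by more than the spread. The Microglia of KO replicates 1, 2 and 4, too few to enter this mean, were at 900, 1041 and 716 CPM. Macrophages (P5) were at 927 ± 134 CPM, Monocytes (P1-P2) at 767 ± 155 CPM and low-quality microglia at 348 ± 108 CPM. The order went on with mo-DCs at 163 ± 63.8 CPM. Gamma-Delta T cells at 81.9 ± 74.4 CPM (n = 4) and NK cells at 81.1 ± 22.9 CPM followed, NK cells above the next name by more than the spread, and 6 of the 22 neighbouring pairs were so separated. Fcgr4, which binds IgG2a, IgG2b and IgG2c, was highest in Macrophages (P5) at 341 ± 73.0 CPM and in Microglia at 320 ± 47.4 CPM, which differed by less than the spread. Low-quality microglia had Fcgr4 at 64.8 ± 37.8 CPM, in the range of mo-DCs (72.3 ± 23.9 CPM).

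Fcer1g, the chain through which the 3 activating receptors signal, had a wider distribution than they did. It lay between 2832 ± 206 CPM in Monocytes (P1-P2) and 3698 ± 305 CPM in Macrophages (P5) over the monocyte, macrophage and Microglia names, whose neighbours in the order did not differ beyond their spread. NK cells followed at 1996 ± 176 CPM, mo-DCs at 1180 ± 209 CPM and pDCs (plasmacytoid dendritic cells) at 901 ± 104 CPM, each apart from the next by more than the spread. Low-quality microglia were at 534 ± 151 CPM, against 3116 ± 391 CPM in Microglia.

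Fcgr2b, the inhibitory receptor, was highest in Macrophages (P3) at 1286 ± 229 CPM. Macrophages (P5) at 995 ± 245 CPM and Monocytes (P1-P2) at 979 ± 242 CPM lay lower by more than the spread, and Macrophages (Proliferating) at 635 ± 166 CPM and Microglia at 619 ± 63.4 CPM came after a drop larger than the spread. Microglia, measured in WT mice only, thus led the order for Fcgr3 but not for Fcgr2b. B cells, which carry Fcgr2b as their IgG receptor, had it at 129 ± 35.7 CPM (n = 6), after mo-DCs at 198 ± 57.1 CPM and before the next name by more than the spread. Fcgrt, the neonatal receptor, had another order: cDC1 were first at 150 ± 23.1 CPM, then mo-DCs at 143 ± 37.0 CPM and Macrophages (P5) at 106 ± 37.5 CPM, while Microglia were at 76.4 ± 3.76 CPM and cDC2 at 26.1 ± 6.04 CPM. Its order had 2 neighbouring pairs apart by more than the spread, among the low levels.

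Shares of cells with a UMI were compared at an equal depth of 1500 UMIs per cell, computed as the expected share after thinning and without the cells below that depth (41 of 251 low-quality microglia, 246 of 13692 T cells), with T cells as the population that should lack the myeloid receptors. At this depth 47.3% of Microglia, 36.8% of Macrophages (P3), 30.7% of Macrophages (P5) and 13.7% of mo-DCs had an Fcgr1 UMI, against 1.26% of T cells. Without thinning these shares were 89.9%, 78.4%, 73.4%, 49.4% and 3.80%, at median depths of 6226, 6073, 6437, 9017 and 4748 UMIs. At 1500 UMIs, 12.2 ± 3.25% of NK cells had an Fcgr3 UMI (33.8% unthinned) against 5.52 ± 2.30% of T cells (15.1% unthinned). An Fcer1g UMI was seen in 91.7 ± 2.03% of NK cells and 72.5 ± 3.61% of pDCs, against 19.6 ± 5.78% of T cells (98.3%, 98.6% and 40.9% unthinned, median depths 5126, 6519 and 4748 UMIs). An Fcgr2b UMI was seen in 18.5 ± 4.55% of B cells (47.0% unthinned, median depth 7302 UMIs) against 5.83 ± 2.75% of T cells (15.4% unthinned). Cells with a value above 0 for an activating receptor and for Fcgr2b made up 69.7 ± 5.50% of Macrophages (P3), 60.3 ± 10.3% of Macrophages (P5), 57.5 ± 9.59% of Monocytes (P1-P2), 51.6 ± 4.22% of Microglia, 43.0 ± 10.0% of Macrophages (Proliferating), 20.6 ± 8.45% of low-quality microglia, 9.94 ± 2.65% of mo-DCs and 0.778 ± 0.515% of T cells. A UMI split between Fcgr3 and Fcgr2b counts toward both arms here. Such values carried 35.5% of the Fcgr2b UMIs in Macrophages (P3) and 5.63% in low-quality microglia. These shares were not recomputed from whole-number values, so how much the split raised them is not known. Transcripts given to both arms, split UMIs included, were thus seen in most cells of the names from Macrophages (P3) to Microglia even at this low depth. Without thinning the shares were 91.2% to 96.6% in these names and 91.8% in Macrophages (Proliferating), so no order is read from them.

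Low levels were set beside those of Lyz2, a lysozyme gene of monocytes and macrophages, as a mark of free RNA. In T cells Lyz2 lay at 1.56% of its highest monocyte or macrophage level, and the median over 10 monocyte and macrophage markers, which include Ccr2, highest in Gamma-Delta T cells, was 2.83% (0.359% to 118%). The members in T cells lay at 1.51% (Fcgr1), 2.89% (Fcgr3), 2.33% (Fcgr4), 2.44% (Fcgr2b), 4.27% (Fcer1g) and 3.42% (Fcgrt) of theirs. Fcgr1 thus lay below both Lyz2 and that median. Fcgr4 and Fcgr2b lay above Lyz2 and below the median, and Fcgr3 lay above Lyz2 and close to the median. For Fcer1g the T cell names differed, from 1.43% in CD4+ T cells/Tregs (Proliferating) to 10.6% in CD8+ T cells (Naive/early activation), where Lyz2 lay at 0.946% and 2.30%. In NK cells Fcgr3 (8.55%) and Fcer1g (53.7%) stood above Lyz2 (1.39%) while Fcgr1 (1.20%) did not, and in B cells Fcgr2b (7.31%) stood above Lyz2 (0.773%) with Fcgr1 at 1.08%. The median over the 10 markers was 2.25% in NK cells and 1.04% in B cells. In pDCs Fcer1g was at 24.4%, with Lyz2 at 1.71% and the median of the markers at 4.96%. The share of these levels that is free RNA was not tested. The makeup of the libraries differed by genotype. Monocytes and macrophages were 332, 1082, 439 and 876 of the 1410, 5305, 4744 and 5856 cells of KO replicates 1 to 4. In WT replicates 1 to 3 they were 1559, 1438 and 1751 of 2934, 4449 and 3946 cells. T cells were 613, 2663, 3792 and 3549 in KO and 311, 1504 and 1260 in WT. Neither share overlapped between genotypes, and its part in the low levels was not tested.

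Across the 23 names, on log2(CPM + 10) pooled over mice, Fcgr1, Fcgr3, Fcgr4 and Fcgr2b ran close together, with Pearson r from 0.945 (Fcgr3 and Fcgr2b) to 0.983 (Fcgr1 and Fcgr4). Fcer1g reached 0.816 to 0.871 with them and Fcgrt 0.586 to 0.679. The 3 genes most like each member, out of 10929 compared, were as follows; the names share libraries and free RNA, so r is given as a description. For Fcgr1 they were Fcgr4, Clec5a (a lectin receptor that signals through Tyrobp, r = 0.982) and Tlr2 (a receptor for bacterial lipoproteins, r = 0.982). For Fcgr3 they were C1qb (a chain of complement C1q, r = 0.978), Fcgr4 (r = 0.977) and C5ar1 (the receptor for complement C5a, r = 0.974). For Fcgr4 they were Pilra (an inhibitory receptor of myeloid cells, r = 0.991), Fcgr1 and Cd300ld (r = 0.982). For Fcgr2b they were Apoe (an apolipoprotein, r = 0.975), Pilra (r = 0.970) and Igsf6 (r = 0.968). For Fcer1g they were Tyrobp, the other ITAM chain of myeloid and NK cells (r = 0.927), Aoah (r = 0.900) and Il10rb (r = 0.878). For Fcgrt they were Tmem50b (r = 0.934), 5031439G07Rik (r = 0.923) and Cyp27a1 (a sterol hydroxylase, r = 0.922).

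The activating to inhibitory balance, the UMIs of Fcgr1, Fcgr3 and Fcgr4 together over those of Fcgr2b with 0.5 added to each side, was higher in the name Microglia than in the monocyte and macrophage names. It is a ratio of transcripts captured, not of receptor protein. In Microglia it was 2.91, 3.37 and 2.84 in WT replicates 1 to 3 (no KO mouse had 20 such cells), a geometric mean of 3.03. The geometric mean was 1.44 in Monocytes (P1-P2), 1.25 in Macrophages (P3), 1.58 in Macrophages (P5) and 1.82 in Macrophages (Proliferating). With both microglia names summed and the 4 monocyte and macrophage names summed (monocyte-derived cells from here on), microglia had the higher balance in 6 of 6 mice, by 0.95 ± 0.40 on the log2 scale (lowest 0.52, highest 1.61). From whole-number values only it was also higher in 6 of 6 mice, by 0.85 ± 0.37. That setting removes UMIs of Fcgr2b and Fcgr3 but none of Fcgr1 and Fcgr4, so it gives the latter more weight. Low-quality microglia, 251 of the 414 microglia, lay at 1.60, within the range of the 4 monocyte and macrophage names and below the 3.03 of Microglia, which were measured in WT mice only. At the ends of the range of geometric means, the balance was 3.58 in NK cells, where 68.0% of the UMIs of the 4 receptors were Fcgr3, and 0.298 in B cells, where 80.5% were Fcgr2b. NK mice spread widely: KO replicate 1 had 144 Fcgr3 and 10 Fcgr2b UMIs, and WT replicate 1 had 13 and 20. NK cells are therefore not ranked against Microglia. The balance of pDCs was also on the inhibitory side at 0.693, with 60.0% Fcgr2b, though WT replicates 1 and 3 lay on the activating side. In T cells it was 1.50, close to the 1.47 of monocyte-derived cells.

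**Figure D2:**
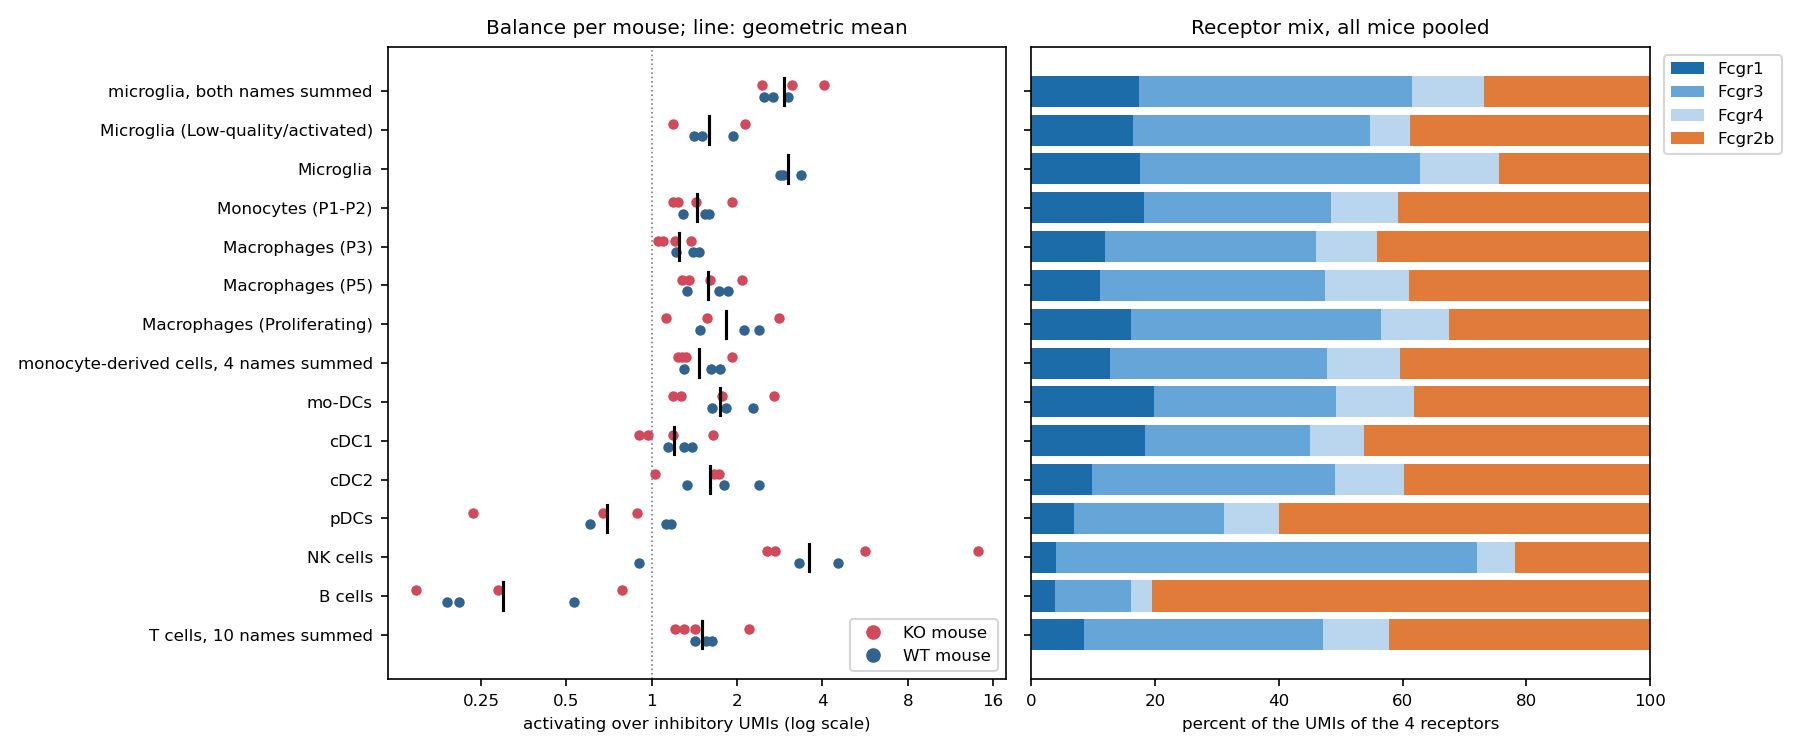
Left, ratio of the UMIs of Fcgr1, Fcgr3 and Fcgr4 to those of Fcgr2b (log scale) in each cell group, with 1 point per mouse, KO in red, WT in blue, and a black line at the geometric mean. Right, percent of the UMIs of these 4 genes that belong to each, all mice pooled. The geometric means are highest in NK cells (3.58), whose mice spread widely, and Microglia (3.03), and lowest in B cells (0.298) and pDCs (0.693). KO and WT mice overlap in each of the 13 groups tested.

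The design compares the genotypes, and the comparison was made for the family in microglia, where the driver acts, and in the other cell groups. In 13 cell groups the 6 genes gave 65 tests with edgeR's quasi-likelihood test on UMIs summed per mouse. None passed a Benjamini-Hochberg adjusted p of 0.05 over all genes of the group, 9 had an unadjusted p under 0.05, and DESeq2 called 1 (Fcgr1 in mo-DCs, below, where it called 26 of all genes). Without the filter on low counts edgeR called Fcgr1 in mo-DCs and in cDC1, with 182 and 105 of all genes. Of these 9, 4 were in microglia, 2 in low-quality microglia (where 167 of 2350 genes had such a p), 2 in cDC1 (642 of 11009 genes) and 1 in mo-DCs.

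In microglia, both names summed, 5 of the 6 members lay lower in every KO mouse than in every WT mouse, a pattern shown by 9.94% of the 4820 genes tested there. KO replicate 3 had 13 microglia and was left out of the fit, so 3 KO mice stand against 3 WT mice. Fcgr1 was at 257, 274 and 249.9 CPM in KO replicates 1, 2 and 4 and at 363, 350.2 and 349.9 CPM in WT replicates 1 to 3. Fcgr3 was at 688, 626 and 486 CPM in KO and 919.7, 928 and 907 CPM in WT. Fcgr4 was at 155, 157 and 133 CPM in KO and 218, 244 and 302 CPM in WT. For each of these activating receptors the groups were apart, and the WT mice lay close together for Fcgr1 and Fcgr3. Fcgr2b was at 351, 254 and 352 CPM in KO and 602, 502 and 579.8 CPM in WT. Fcer1g was at 1913, 1683 and 1572 CPM in KO and 2363, 2169 and 2659 CPM in WT. Both the inhibitory receptor and the common chain thus lay on the same side as the activating receptors. Fcgrt was at 69.7, 19.6 and 55.5 CPM in KO and 72.2, 67.6 and 61.0 CPM in WT, with the groups overlapping. KO replicate 3, whose 13 microglia were all low-quality, also lay below the summed WT microglia for the same 5 genes, from 7 or fewer UMIs for Fcgr1, Fcgr4 and Fcer1g. The share of all genes doing so with this mouse included was not computed. Against the low-quality microglia of WT mice it was within range for Fcgr1 (190 against 146 to 195 CPM) and Fcgr2b (443 against 368 to 501 CPM). It lay above them for Fcgr3 (614 against 274 to 468 CPM) and below them for Fcgr4 and Fcer1g.

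**Figure D3:**
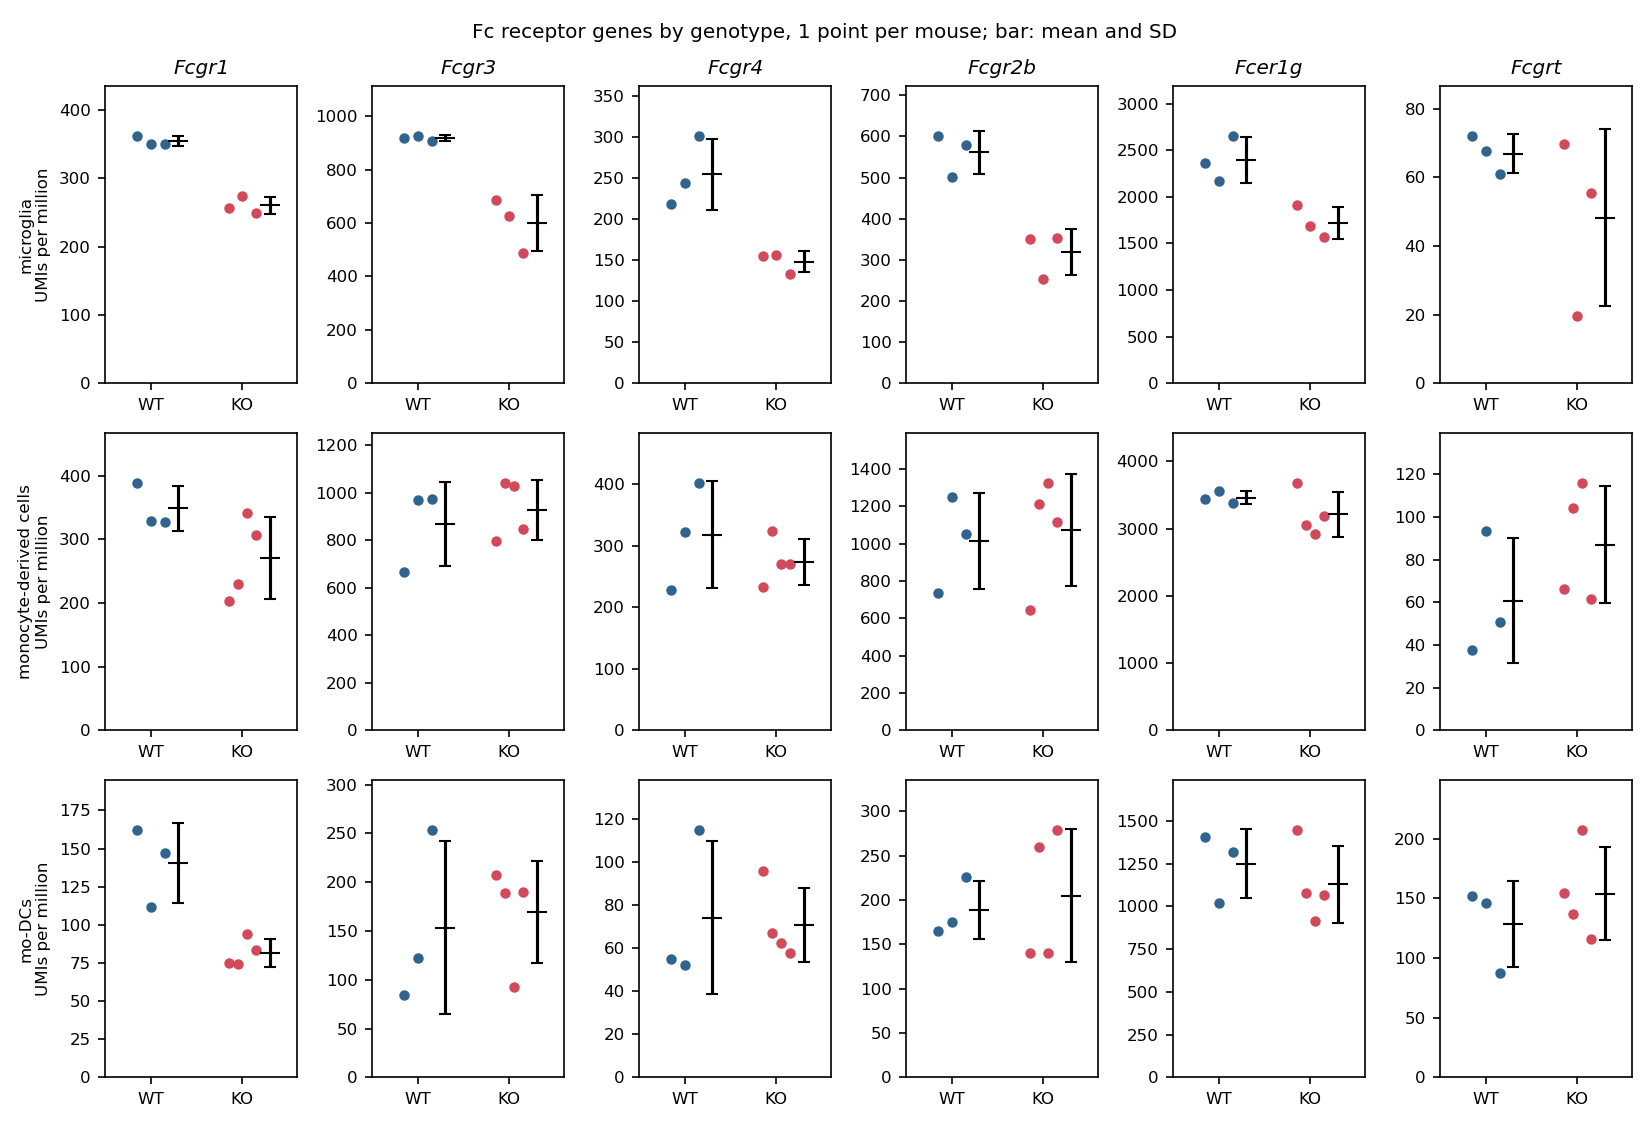
Level of each Fc receptor gene (CPM, axes from 0) in microglia, monocyte-derived cells and mo-DCs, with 1 point per mouse with at least 20 cells, WT in blue and KO in red, and mean and SD as bars. In microglia 5 genes show KO points below all WT points, whereas in monocyte-derived cells all 6 genes overlap and in mo-DCs only Fcgr1 is apart.

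On the log2 scale the differences in microglia, KO over WT, were -0.47 (SE 0.24) for Fcgr1, -0.63 (SE 0.24) for Fcgr3, -0.80 (SE 0.26) for Fcgr4, -0.78 (SE 0.25) for Fcgr2b, -0.49 (SE 0.22) for Fcer1g and -0.25 (SE 0.37) for Fcgrt. The edgeR adjusted p was lowest for Fcgr2b (0.185) and Fcgr4 (0.196), and the others lay between 0.271 and 0.813. So 0 of 6 members were called, where 0.0415% of all genes tested were, and 4 members had an unadjusted p under 0.05, as did 570 of the 4820 genes. The median over the 6 members was -0.56, against 0.00039 over all genes tested. Over 12 alternatives the value of Fcgr2b stayed between -0.89 and -0.63 (adjusted p 0.154 to 0.663) and that of Fcgr4 between -1.02 and -0.55 (adjusted p 0.194 to 0.923). Those of Fcgr1, Fcgr3 and Fcer1g ran from -0.58 to -0.45, -0.78 to -0.34 and -0.85 to -0.35. The smallest value of Fcgr3, -0.34 (edgeR unadjusted p = 0.182, against 0.0129 in the main design), came from whole-number values only. This setting also drops UMIs that were not split, so the change is not that of the split UMIs alone. That of Fcgrt was -0.53 without KO replicate 1 and -0.090 without KO replicate 2.

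The makeup of the microglia moved with these levels. Low-quality microglia, in which the members lay lower, made up 66.7%, 66.7%, 100% and 69.4% of the microglia of KO replicates 1 to 4 and 61.1%, 47.8% and 59.4% of those of WT replicates 1 to 3. Within low-quality microglia alone (2 KO and 3 WT mice) the differences were -0.71 (SE 0.43) for Fcgr1, -0.54 (SE 0.36) for Fcgr3, -0.74 (SE 0.35) for Fcgr2b and -0.68 (SE 0.33) for Fcer1g, with edgeR adjusted p from 0.659 to 0.877. Without KO replicate 1 or KO replicate 4 they moved widely, to -1.09 and -0.39 for Fcgr1, -0.95 and -0.21 for Fcgr3 and -1.11 and -0.33 for Fcer1g, but to -0.73 and -0.76 for Fcgr2b. Of these 4 testable members 0 were called against 0.213% of all genes, and 3 lay lower in each KO mouse of this fit than in every WT mouse, against 10.4% of all genes. KO replicates 2 and 3, with 14 and 13 such cells, were left out of this fit. KO replicate 3 did not lie below the WT mice for Fcgr1 and Fcgr2b. KO replicate 2 lay below them for these genes, from 2 and 5 UMIs. For Fcer1g KO replicate 2 was at 579 CPM, within the WT range of 549 to 672 CPM. Within Microglia, which had only 10, 7 and 15 cells in KO replicates 1, 2 and 4 and could be fitted only with a minimum of 5 cells, the differences of the same 5 genes were smaller: -0.12 (SE 0.29) for Fcgr1, -0.32 (SE 0.26) for Fcgr3, -0.38 (SE 0.29) for Fcgr4 and -0.16 (SE 0.22) for Fcer1g. Fcgr2b was at -0.59 (SE 0.29) there, and all 6 edgeR adjusted p were 0.671 or above. Fcgr3 lay at 716 to 1041 CPM in these KO mice and 1072 to 1164 CPM in WT mice. Fcgr4 lay at 227 to 260 and 291 to 375 CPM, and Fcgr2b at 297 to 430 and 546 to 658 CPM. KO replicate 2 had 7 Fcgr4 and 8 Fcgr2b UMIs. Fcgr1, Fcer1g and Fcgrt overlapped, and the share of all genes lying apart was not computed there. Markers of other cells moved too. The summed level of the 8 microglia markers was 4694 to 7478 CPM in KO and 6908 to 9379 CPM in WT, and that of 7 T cell markers 48.2 to 137 CPM in KO and 10.8 to 41.1 CPM in WT. The summed level of 10 monocyte and macrophage markers overlapped, at 925 to 1926 CPM and 1178 to 1469 CPM. Their part in the result was not tested.

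Whether the genotype difference was another one in microglia than in monocyte-derived cells was tested in 1 edgeR model with a term per mouse (3 KO and 3 WT mice). The differences of the 2 effects were -0.87 (SE 0.27, adjusted p = 0.109) for Fcgr3, -0.87 (SE 0.28, adjusted p = 0.142) for Fcgr2b, -0.74 (SE 0.30, adjusted p = 0.277) for Fcgr4, -0.74 (SE 0.39, adjusted p = 0.476) for Fcgrt and -0.63 (SE 0.27, adjusted p = 0.340) for Fcer1g. For Fcgr1 it was -0.15 (SE 0.28, adjusted p = 0.911). So 0 of 6 members were called where 0.524% of the 11833 genes tested were, and 4 had an unadjusted p under 0.05, as did 1273 of all genes. All 6 values lay below 0, that of Fcgr1 not in every leave-one-out fit (up to 0.046), and the median over all genes in this model was itself -0.16.

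**Figure D4:**
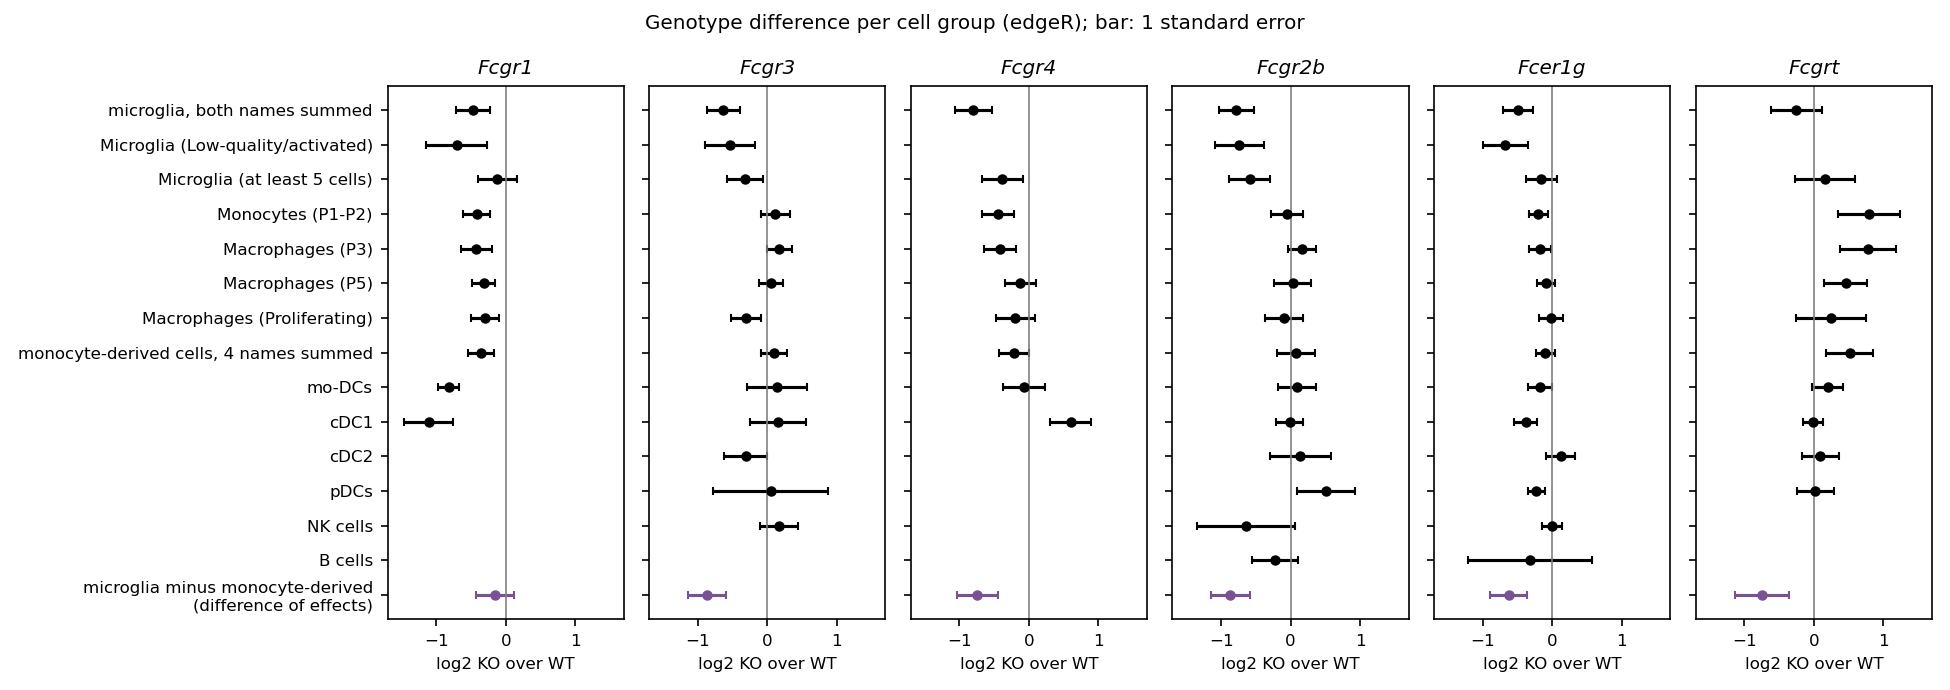
Difference between genotypes (log2, KO over WT) of each Fc receptor gene in each cell group from edgeR, with bars of 1 standard error; the purple points are the difference between the effects in microglia and in monocyte-derived cells. The microglia points lie below 0 for all 6 genes, Fcgr1 lies below 0 in each group where it was tested, and no point passed the adjusted threshold.

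In monocyte-derived cells the genotypes overlapped for each of the 6 members. Fcgr1 was at 204, 231, 342 and 307 CPM in KO replicates 1 to 4 and 389, 329.6 and 328 CPM in WT replicates 1 to 3, a difference of -0.36 (SE 0.19, edgeR adjusted p = 0.903), and of -0.45 to -0.23 leaving out 1 mouse. Its means, 271 ± 64.4 CPM in KO (SD, n = 4) and 349 ± 35.0 CPM in WT (SD, n = 3), were apart by more than the larger SD. KO replicates 1, 2 and 4 lay below the WT mice and KO replicate 3 was within the WT range. Markers of other cells were apart by genotype in these cells too: the 7 T cell markers summed lay at 47.2 to 73.4 CPM in KO and 14.8 to 33.8 CPM in WT, and the 6 pDC markers at 399 to 803 CPM and 861 to 1106 CPM. Their part in the Fcgr1 values was not tested. Fcgr3 (0.09, SE 0.19), Fcgr4 (-0.22, SE 0.22), Fcgr2b (0.08, SE 0.27), Fcer1g (-0.10, SE 0.14) and Fcgrt (0.51, SE 0.34) had edgeR adjusted p from 0.919 to 0.974. Leaving out 1 mouse, Fcer1g ran from -0.16 to -0.030 and Fcgrt from 0.25 to 0.97. Fcgr2b varied between mice without regard to genotype: it was lowest in KO replicate 1 (642 CPM) and WT replicate 1 (736 CPM) and lay between 1053 and 1326 CPM in the other 5. Here 0 of 6 were called, against 0% of all 11943 genes, of which 674 had an unadjusted p under 0.05 and DESeq2 called 20.

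The 4 single names gave the same picture, with 0 of 6 members called in each, against 0% of all genes in Monocytes (P1-P2), 0% in Macrophages (P3), 0.0188% in Macrophages (P5) and 0% in Macrophages (Proliferating). Fcgr1 was at -0.42 (SE 0.20), -0.42 (SE 0.22), -0.32 (SE 0.17) and -0.30 (SE 0.20) in this order, with edgeR adjusted p of 0.750, 0.890, 0.763 and 0.997. Leaving out 1 mouse, these differences ran from -0.51 to -0.28, -0.59 to -0.29, -0.44 to -0.19 and -0.39 to -0.23. These names share mice and free RNA and are not independent. Fcgrt lay on the other side, at 0.79 (SE 0.45), 0.78 (SE 0.40), 0.46 (SE 0.31) and 0.24 (SE 0.50), with edgeR adjusted p from 0.761 to 0.997. These values rested on single mice: without WT replicate 1 they were 0.49, 0.47, 0.20 and -0.15, and without WT replicate 2 they were 1.20, 1.07, 0.83 and 0.83. Fcer1g had small differences, but in Monocytes (P1-P2) it lay at 2534 to 2813 CPM in the 4 KO mice and 2917 to 3149.9 CPM in the 3 WT mice. The same held in Macrophages (P3), at 2674 to 2836 CPM and 2997 to 3192 CPM. In each of these names it was the 1 member of 6 lower in every KO mouse, against 3.14% and 3.35% of all genes.

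The clearest single difference outside microglia was that of Fcgr1 in mo-DCs. It was at 75.0, 74.1, 93.7 and 83.7 CPM in KO replicates 1 to 4 and at 162, 111 and 147 CPM in WT replicates 1 to 3. The genotypes did not overlap and KO was the lower one, as for 2.81% of all genes and for no other member. The log2 difference was -0.82 (SE 0.15, unadjusted p = 0.000202), which edgeR did not call (adjusted p = 0.423), so that 0 of 6 members were called against 0% of 10501 genes (with no adjustment 798 had p under 0.05). By DESeq2 it was called (adjusted p = 0.0158), and likewise by edgeR without the filter on low counts (adjusted p = 0.000305). Over 12 alternatives the value stayed between -0.96 and -0.70, with adjusted p from 0.000305 to 0.878. At 1500 UMIs per cell 10.7% of KO and 17.6% of WT mo-DCs had an Fcgr1 UMI. The other 5 members in mo-DCs were at 0.14 (SE 0.43) for Fcgr3, -0.07 (SE 0.30) for Fcgr4, 0.09 (SE 0.27) for Fcgr2b, -0.18 (SE 0.18) for Fcer1g and 0.20 (SE 0.22) for Fcgrt, with edgeR adjusted p from 0.849 to 0.971. Markers of T cells and pDCs were apart by genotype in mo-DCs. The summed level of 7 T cell markers was 55.0 to 219 CPM in KO and 17.3 to 49.5 CPM in WT, that of 6 pDC markers 424 to 558 CPM and 659 to 1171 CPM. That of 10 monocyte and macrophage markers overlapped, at 1701 to 2816 CPM and 2238 to 4073 CPM. Their part in the Fcgr1 difference was not tested.

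In cDC1 Fcgr1 was at 13.4, 13.2, 14.8 and 14.7 CPM in KO and 51.6, 21.8 and 17.9 CPM in WT, a difference of -1.11 (SE 0.35, edgeR adjusted p = 0.732) that dropped to -0.52 without WT replicate 1. Without the filter on low counts edgeR called it (adjusted p = 2.98e-05), beside 105 of all genes. Fcer1g was the other member lower in every KO mouse there, at 141 to 172 CPM against 173 to 274 CPM, so that 2 of 6 members showed this pattern against 3.22% of all genes, and 0 of 6 were called against 0%. In cDC1 the 7 T cell markers summed lay at 50.1 to 76.2 CPM in KO and 7.22 to 24.3 CPM in WT, without overlap. The summed monocyte and macrophage markers lay at 1260 to 1762 CPM in KO and 1113 to 2682 CPM in WT, and 5 mast cell and basophil markers, which include Fcer1a, at 0 to 0.346 CPM and 0 to 27.6 CPM. Their part was not tested.

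In NK cells, B cells and pDCs the genotypes overlapped for the members described here. In NK cells Fcer1g lay at 1769 to 2141 CPM in KO and 1784 to 2233 CPM in WT (-0.01, SE 0.14, edgeR adjusted p = 1.00) and Fcgr3 at 55.3 to 113 CPM and 48.0 to 87.4 CPM (0.17, SE 0.27, edgeR adjusted p = 1.00). In B cells (3 KO and 3 WT mice) Fcgr2b lay at 77.0 to 146 CPM in KO and 92.9 to 169 CPM in WT (-0.22, SE 0.33, edgeR adjusted p = 1.00). Over 12 alternatives this difference ran from -0.38 to -0.041. In pDCs Fcer1g lay at 755 to 918 CPM in KO and 882 to 1067 CPM in WT (-0.23, SE 0.13, edgeR adjusted p = 0.826). No member was called, 0 of 3 in NK cells against 0.0141% of all genes, 0 of 2 in B cells against 0%, 0 of 4 in pDCs against 0.045% and 0 of 4 in cDC2 against 0%.

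The balance did not separate the genotypes in any of the 13 groups tested by an exact permutation test over mice, two-sided, whose smallest possible p is 0.0286 with 4 against 3 mice and 0.1 with 3 against 3. In microglia it was 3.12, 4.04 and 2.46 in KO replicates 1, 2 and 4 and 2.49, 3.03 and 2.69 in WT replicates 1 to 3 (exact permutation p = 0.5, adjusted over the 13 groups 0.867). In monocyte-derived cells it was 1.92, 1.32, 1.24 and 1.28 in KO and 1.74, 1.30 and 1.62 in WT (exact permutation p = 0.571, adjusted 0.867). With 13 groups, 1 group alone at the smallest possible p has an adjusted p of 0.371, so no balance could have passed by itself and the adjusted values say nothing of stability. The largest differences were those of NK cells, 1.02 on the log2 scale (0.32 to 1.49 leaving out 1 mouse; exact permutation p = 0.4), and pDCs, -0.84 (-1.22 to -0.26; exact permutation p = 0.3), and in both the genotypes overlapped. The lowest p was that of Macrophages (P3), at a geometric mean of 1.18 in KO and 1.36 in WT (exact permutation p = 0.114, adjusted 0.867). There the choice of genes and values mattered. From whole-number values only the log2 difference was -0.29 (exact permutation p = 0.0286, the smallest possible, adjusted 0.371), so that the genotypes were fully apart. This setting removed 35.5% of the Fcgr2b and 37.5% of the Fcgr3 UMIs of this name and none of Fcgr1 and Fcgr4. It thus gives Fcgr1 and Fcgr4 more weight and does not test the split UMIs alone. With Fcgr1 and Fcgr4 alone over Fcgr2b the log2 difference was -0.61 and with Fcgr3 alone over Fcgr2b it was 0.036. The exact permutation p with Fcgr1 and Fcgr4 was 0.0286, again the smallest possible (adjusted 0.371; over the 11 alternatives run for this name the adjusted p ran from 0.371 to 1 where one could be given). In microglia the activating and the inhibitory UMIs were both lower in KO mice, and their ratio lay below the WT range in KO replicate 4 and above it in KO replicates 1 and 2. The excess of the balance in microglia over monocyte-derived cells was 1.09 ± 0.47 in KO and 0.82 ± 0.36 in WT on the log2 scale (n = 3 each, exact permutation p = 0.6).

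The transcripts of the ligands lay mostly in B cells. Ighg2c, the heavy chain of IgG2c, reached 11815 CPM in B cells pooled over mice and Ighg2b 5151 CPM, against 222 and 63.9 CPM in mo-DCs, the name with the next highest pooled level. In mo-DCs WT replicate 2 alone gave 79.4% of the Ighg2c UMIs, and the median over mice was 1.17 CPM for Ighg2c and 3.51 CPM for Ighg2b. Over mice Ighg2c in B cells ran from 412 to 16173 CPM with a median of 10934, and Ighg2b from 0 to 9269 CPM with a median of 513, and WT replicate 2 alone gave 65.5% of the Ighg2c UMIs of B cells. Ighg1 had 14 UMIs in all, and Ighg3 lay at 45.3 CPM in B cells. These are transcripts of IgG-making cells in the tumour-bearing hemisphere and say nothing of serum IgG.

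The genes around the receptors were read from lists of other Fc receptors and of signalling. Of the 12 other Fc and Fc-like receptors, Fcrls, an Fc-receptor-like gene that is also in the microglia marker list, was highest in Microglia at 1080 CPM, Fcrla in pDCs at 300.2 CPM and Fcmr, the IgM receptor, in B cells at 61.0 CPM, all pooled over mice. Fcer1a and Ms4a2, subunits of the IgE receptor that shares Fcer1g, had 17 and 6 UMIs in all. Inpp5d, the phosphatase that Fcgr2b recruits, was highest in low-quality microglia at 847 CPM, with 314 CPM in Microglia and 166 CPM in monocyte-derived cells. Tyrobp was highest in Microglia at 3157 CPM.

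Among the genes of these lists edgeR called none by genotype in microglia, monocyte-derived cells or mo-DCs, and DESeq2 called none either. In microglia 1 of the 15 activating genes and 1 other Fc receptor gene (Fcrls, the 1 tested) had an unadjusted p under 0.05, in monocyte-derived cells 2 of the 9 inhibitory genes and 1 of 4 other Fc receptor genes, and in mo-DCs 3 of the 18 activating and 1 of the 9 inhibitory genes. Over all genes these were 570 of 4820, 674 of 11943 and 798 of 10501. In microglia 15 of 18 activating signalling genes were tested, 7 higher and 8 lower in KO, with a median of -0.05 against 0.00039 over all genes. The median over the members was -0.56, and the difference between these sets of genes was not tested. The lowest p among the activating signalling genes were those of Lat2 (-0.62, SE 0.29, edgeR adjusted p = 0.399), Tyrobp (-0.41, SE 0.22, edgeR adjusted p = 0.469) and Rac2 (-0.46, SE 0.26, edgeR adjusted p = 0.478). Of 9 inhibitory signalling genes 6 were tested, 3 on each side, with Cbl (0.38, SE 0.26), Ptpn11 (-0.34, SE 0.44) and Inpp5d (0.19, SE 0.25) at edgeR adjusted p from 0.578 to 0.792. Fcrls was at -0.85 (SE 0.30, edgeR adjusted p = 0.243) and B2m, the partner of Fcgrt, at -0.36 (SE 0.22, edgeR adjusted p = 0.522). In monocyte-derived cells 8 of 18 activating genes were higher and 10 lower (median -0.01), and 7 of 9 inhibitory genes lower (median -0.08), led by Ptpn6, the phosphatase SHP-1, at -0.42 (SE 0.13, edgeR adjusted p = 0.827), Inppl1 at -0.39 (SE 0.13, edgeR adjusted p = 0.827) and Dok2 at -0.60 (SE 0.39, edgeR adjusted p = 0.919). In mo-DCs 14 of 18 activating genes were lower (median -0.21, against 0.0064 over all genes). Among them were Syk, the kinase that binds the phosphorylated ITAM, at -0.48 (SE 0.14) and Prkcd at -0.38 (SE 0.17), with edgeR adjusted p of 0.542 and 0.647.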

How the data were processed

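Droplet libraries of 7 mice (4 Siglece KO, 3 WT) were analysed from 1 deposited matrix of UMIs per gene and cell. The authors processed the reads with STARsolo and STAR 2.7.10a on mm10, with FastQC 0.11.5, per the submitters' processing notes. The deposited matrix holds estimated counts (UMIs) made by the authors, with 7.51% of its values above 0 not whole. The deposited cell table gives cell type names, counts of detected genes and percent of mitochondrial and ribosomal UMIs, per the file headers. The deposited tSNE coordinates, which are scores made by the authors, were not used. No doublet filter was added to the deposited cells, and how doublets were treated upstream is not given in the sources used here.

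UMIs were summed per mouse and cell group, rounded, and tested with edgeR 4.0.16 (R 4.3.3; TMM, filterByExpr, quasi-likelihood test, Benjamini-Hochberg over all genes, threshold 0.05), leaving out mice with under 20 cells of a group. All adjusted p-values are from edgeR unless DESeq2 1.42.0 is named. Exact permutation tests over mice, two-sided, compared balances, with at least 20 receptor UMIs per mouse, adjusted over 13 groups. Fits were run on simulated data with planted changes larger than any member difference given here. This says nothing of their power for smaller differences. Libraries held 16037214 to 38966377 UMIs. Counting error limits precision, as do the spread between mice and the UMIs split between genes. Coding sequences came from GENCODE M21 (GRCm38). The genes named are the 6 members, for each list the lowest-p genes per group, and the 3 genes most like each member. The members and lists were chosen with earlier results of these data known. Alternatives were DESeq2 and its size factors, no filter, a replicate block, whole-number values only, a minimum of 5 cells, other balances, and each mouse left out in turn.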

Additional observations from a re-analysis of the deposited data

Results flagged for a closer look

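In 6 of 84 sets of 4 KO mice checked, 1 mouse stood far from the other 3. The rule used is set to flag about 1 in 20 sets by chance, and the sets share mice and genes. Fcgr3 in mo-DCs was at 92.4 CPM in KO replicate 3 and at 189 to 208 CPM in the others. Fcgr3 was at 58.1 CPM in KO replicate 2 in CD4+ T cells (Th1), against 19.4 to 24.2 CPM, and at 53.7 CPM in the same mouse in CD8+ T cells (Precursor-Exhausted), against 13.8 to 19.3 CPM. Fcgr2b in cDC2 was at 58.7 CPM in KO replicate 2, against 11.8 to 19.4 CPM. The activating to inhibitory balance was 1.92 in the monocyte-derived cells of KO replicate 1, against 1.24 to 1.32, and 3.31 in its CD4+ T cells (Tfh), against 1.25 to 1.39. KO replicate 1 was the smallest library (1410 cells) with the highest median depth (9554 UMIs per cell), and KO replicate 2 had the lowest (4479 UMIs); their part in these values was not tested.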

How the results depend on the processing

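Of 454 alternative values of log2 differences over 41 results, 429 kept their direction and side of the threshold, 22 reversed and 3 came to pass it. The latter were Fcgr1 in mo-DCs under DESeq2 and without the low-count filter and Fcgr1 in cDC1 without the filter (adjusted p = 2.98e-05, from 2.98e-05 to 0.945 over its 12 alternatives), so that each of these settings called 1 member there, and 26, 182 and 105 of all genes. With a replicate block, Fcgr4 in mo-DCs was at 0.069 and Fcgr2b at -0.15; Fcer1g in NK cells was at 0.083 without the filter and at 0.0048 from whole-number values only. The genotype difference of the balance reversed with Fcgr3 alone over Fcgr2b in low-quality microglia (0.20), Monocytes (P1-P2) (0.24), Macrophages (P3) (0.036), Macrophages (P5) (0.038), monocyte-derived cells (0.041), mo-DCs (0.18) and cDC1 (0.30). It also reversed from whole-number values (0.078) and a minimum of 5 cells (0.051) in low-quality microglia, in a replicate block for Macrophages (P5) (0.024) and Macrophages (Proliferating) (0.16), and with Fcgr1 and Fcgr4 over Fcgr2b in NK cells (-0.058). The cause was not tested. The balance of microglia over monocyte-derived cells stayed between 0.82 and 1.04 under alternatives chosen after seeing the data (whole-number values only, Fcgr3 alone, Fcgr1 and Fcgr4, each mouse left out).

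Leaving out 1 mouse at a time, values that changed sign ranged from -0.15 to 0.83 (Fcgrt, Macrophages (Proliferating)), in monocyte-derived cells from -0.082 to 0.22 (Fcgr3), -0.42 to 0.029 (Fcgr4) and -0.12 to 0.27 (Fcgr2b), in mo-DCs from -0.16 to 0.68 (Fcgr3), -0.27 to 0.36 (Fcgr4), -0.093 to 0.25 (Fcgr2b) and -0.0088 to 0.33 (Fcgrt), in NK cells from -0.062 to 0.099 (Fcer1g) and -0.010 to 0.37 (Fcgr3), and from -0.32 to 0.046 for the difference of effects of Fcgr1. The differences of effects of Fcgr2b and Fcgrt ran from -1.24 to -0.54 and -1.09 to -0.28. Balances ranged from -0.43 to 0.42 (low-quality microglia), -0.19 to 0.034 (Monocytes (P1-P2)), -0.21 to 0.028 (Macrophages (P5)), -0.56 to 0.10 (Macrophages (Proliferating)) and -0.43 to 0.78 (B cells). Where 1 KO mouse was left (low-quality microglia), it is assumed to vary like the WT mice. Unthinned shares of cells with values above 0 for both kinds of receptor, split UMIs included, were 91.5% (Microglia), 36.0% (low-quality), 91.2% (Monocytes (P1-P2)), 96.6% (P3), 92.9% (P5), 91.8% (Proliferating) and 43.1% (mo-DCs). At 1500 UMIs they were 51.6%, 20.6%, 57.5%, 69.7%, 60.3%, 43.0% and 9.94%.

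Over all genes, in microglia 2 genes were called in the main design, 6 by DESeq2, 41 without the filter and 17 with a replicate block, in mo-DCs 0, 26, 182 and 8, in monocyte-derived cells 0, 20, 5 and 3, and in pDCs 3, 6, 38 and 40. No fit had every same-numbered pair's correlation above 0.1 (single pairs ran from -0.45 to 0.15, with 0.13 for replicate 1 in monocyte-derived cells), so the replicate numbers were not taken to pair the mice. The KO mice had 13 to 49 microglia each.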
